A study of Mus musculus with 16 samples.

Results

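The enzymes that build cholesterol and fatty acids were followed in bone-marrow-derived macrophages of mice, which were wild type or lacked NFAT5 and were measured with or without lipopolysaccharide (LPS), the bacterial cell wall component sensed by TLR4. The set was a fixed list of 36 genes covering the mevalonate and sterol enzymes, the SREBP regulators, and fatty acid synthesis and desaturation. Members were found by the gene symbol of the array platform, and the probe set with the highest mean over the 16 arrays stood for each gene. Of the 36 listed genes, 35 were measured, among 19937 genes in all; Acat2 was not analysed here because no probe set carried its symbol alone. All samples were bone-marrow-derived macrophages of the 129sv background. The 4 groups were unstimulated wild type, LPS-stimulated wild type, unstimulated NFAT5 knockout (KO) and LPS-stimulated KO, with 4 arrays each, numbered 1 to 4 in the labels. The sources used here do not give how NFAT5 was deleted, the dose and duration of LPS, or the age of the animals. The labels do not state that same-group arrays derive from different animals or cultures. The p-values therefore reflect only how far these samples spread, and that spread may be technical. Within the KO groups, however, Xist and Kdm5d levels (given below) show arrays of both sexes, and so more than 1 animal. For the wild-type arrays this is not known.

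Cholesterol synthesis starts from acetyl-CoA. The mevalonate branch joins acetyl-CoA units into isoprenoid precursors, squalene synthase and squalene epoxidase commit them to sterols, lanosterol synthase closes the rings, and the post-lanosterol enzymes trim lanosterol to cholesterol. SREBP transcription factors switch these genes on when membrane sterol falls. SCAP escorts SREBP from the endoplasmic reticulum to the Golgi for cleavage, and the INSIG proteins hold it back when sterol is plentiful. SREBP-2, from Srebf2, is best known for sterol genes and SREBP-1c, from Srebf1, for fatty acid genes. In macrophages, sterol intermediates and the oxysterol 25-hydroxycholesterol also take part in responses to microbes. NFAT5 is a Rel-family transcription factor known from the response to osmotic stress and, in macrophages, from gene induction by Toll-like receptors.

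SREBPs bind sterol regulatory elements and often act with NF-Y at CCAAT boxes and with Sp1 at GC boxes, so the 250 bases before the transcription start were read for 28 of the 35 measured members that have an entry in a RefSeq promoter table (GRCm38.p6). The 4 promoters below, each written 5′ to 3′ in the direction of transcription, show a range from dense to absent CCAAT boxes. Capitals mark the sterol regulatory element core TCACNCCAC and the CCAAT box, which reads ATTGG where it lies on the other strand. Hmgcs1 (chr13:119690101-119690350, plus strand) encodes HMG-CoA synthase, Msmo1 (chr8:64733579-64733828, minus strand) sterol C4-methyl oxidase, Insig1 (chr5:28071162-28071411, plus strand) the sterol-sensing retention protein and Fads2 (chr19:10101504-10101753, minus strand) the delta-6 desaturase.
Hmgcs1: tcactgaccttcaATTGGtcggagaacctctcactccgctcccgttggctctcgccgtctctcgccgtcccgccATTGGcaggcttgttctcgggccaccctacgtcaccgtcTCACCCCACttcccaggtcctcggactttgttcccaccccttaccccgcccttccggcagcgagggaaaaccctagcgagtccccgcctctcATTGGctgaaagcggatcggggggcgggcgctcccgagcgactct
Msmo1: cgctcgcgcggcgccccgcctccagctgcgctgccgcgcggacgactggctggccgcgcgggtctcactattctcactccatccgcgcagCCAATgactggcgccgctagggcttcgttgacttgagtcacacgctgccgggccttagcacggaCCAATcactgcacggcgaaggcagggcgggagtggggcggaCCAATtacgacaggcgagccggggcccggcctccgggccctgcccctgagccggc
Insig1: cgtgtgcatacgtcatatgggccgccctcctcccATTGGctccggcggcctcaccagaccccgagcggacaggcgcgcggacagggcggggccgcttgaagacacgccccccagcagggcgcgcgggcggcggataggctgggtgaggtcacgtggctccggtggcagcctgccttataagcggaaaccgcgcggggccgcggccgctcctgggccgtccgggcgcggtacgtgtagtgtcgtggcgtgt
Fads2: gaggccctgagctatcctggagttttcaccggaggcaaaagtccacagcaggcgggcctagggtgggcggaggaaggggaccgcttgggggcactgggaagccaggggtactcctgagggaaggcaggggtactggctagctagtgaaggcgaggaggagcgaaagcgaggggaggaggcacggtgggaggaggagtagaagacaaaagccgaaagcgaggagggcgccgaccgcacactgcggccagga

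The Hmgcs1 promoter held 3 CCAAT boxes and the match TCACCCCAC, at 137 to 129 bases before the start. Msmo1 held 3 CCAAT boxes, Insig1 held 1 and Fads2 held none. The 28 members have 37 promoters, and a gene was counted where any of its promoters held the motif. CCAAT on either strand was found in 23 members (82.1%). It was found in 38.8% of the 15613 genes of the array that have a promoter in the table and 37.5% of all 27025 genes there. The GC box GGGCGG was found in 22 members (78.6%), against 49.3% of array genes and 35.4% of all genes in the table. The E-box CACGTG was found in 6 members (21.4%), against 8.11% and 6.86%. The core TGGAAA bound by NFAT proteins was found in 6 members (21.4%), against 19.4% and 20.9%. TCACNCCAC was found in Hmgcs1 alone (3.57%), against 1.2% and 1.22%. These shares count letters on both strands and not bound sites, and motifs that overlap were counted separately. Member promoters had a median GC content of 62.8%, against 56.8% for the array genes. The 7 members without an entry were Fdps, Fdft1, Sqle, Stard4, Scd1, Scd2 and Fads1.

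Levels are log2 expression values after robust multi-array average (RMA) normalisation, so a difference of 1 is a 2-fold change, and array medians lay between 6.76 and 6.86. Macrophage identity was checked first: the median level of 7 macrophage markers lay between 12.25 and 13.13 in every array. Nfat5 itself was measured at 9.15 to 9.67 in unstimulated wild type, 8.93 to 9.20 in unstimulated KO, 9.80 to 10.56 in LPS-stimulated wild type and 8.67 to 9.29 in LPS-stimulated KO. The KO arrays thus lay below the wild type with LPS (log2 difference -0.98 ± 0.16 SE, adjusted p = 0.00169), whereas those without LPS overlapped (-0.36 ± 0.16, adjusted p = 0.602). Where its probe set lies relative to the deleted part is not known, so a remaining signal does not speak to the protein. Sex and genotype largely coincided: Xist, from the inactive X, lay above the Y-linked Kdm5d in 10 arrays, namely the 8 of wild type and, in either treatment, the KO array numbered 4. It lay below Kdm5d in the other 6 KO arrays, where sex and genotype cannot be told apart. Genotype results of the members are therefore also given for the arrays numbered 4. For genes outside the members they are not.

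All 16 arrays were fitted together in limma with 1 mean per group, and p-values were adjusted by Benjamini-Hochberg over the 19937 genes. A gene is called, or said to have risen or fallen, where the adjusted p is under 0.05, and differences are given ± SE from that fit with 4 arrays per group. In RNA from whole cultures fewer cells of a type cannot be told apart from less RNA per cell. In wild-type cells LPS raised 8 of 35 members and lowered 12; over all genes 14% were called higher and 16.8% lower. In KO cells LPS raised 18 and lowered 5, with 12% of all genes called higher and 12.7% lower. The median log2 difference of the 35 members was -0.10 in wild type and 0.33 in KO, and over all genes 0.06 and 0.01. Leaving out 1 array at a time, the wild-type call was lost for Fads2 in 6 of 16 fits, for Hmgcs1, Sqle and Msmo1 in 5, for Hsd17b7 in 3 and for Mvk and Nsdhl in 2. The KO call was lost for Acss2 in 7, for Nsdhl in 4, for Ebp in 2 and for Pmvk in 1. The counts of the 17 sterol enzymes and the 12 measured fatty acid genes were as follows: in wild type 6 sterol enzymes rose and 5 fell while 1 fatty acid gene rose and 7 fell, and in KO 13 sterol enzymes rose and 2 fell while 2 fatty acid genes rose and 3 fell.

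Each gene's deviation from its own mean over the 16 arrays, taken as the median over the 17 sterol enzymes, was between -0.27 and -0.02 in the unstimulated wild-type arrays and between -0.21 and 0.13 in the LPS-stimulated ones. In KO cells it lay between -0.46 and -0.28 without LPS and between 0.29 and 0.88 with LPS. All 4 stimulated KO arrays thus stood above the other 12 arrays. All 4 unstimulated KO arrays stood below the other 12, the nearest of which lay at -0.27. Over the 12 fatty acid genes the same median was 0.01 to 0.33 in unstimulated wild type, -0.64 to -0.23 in stimulated wild type, -0.06 to 0.21 in unstimulated KO and -0.10 to 0.15 in stimulated KO. Here the stimulated wild-type arrays stood below the other 12.

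**Figure D1:**
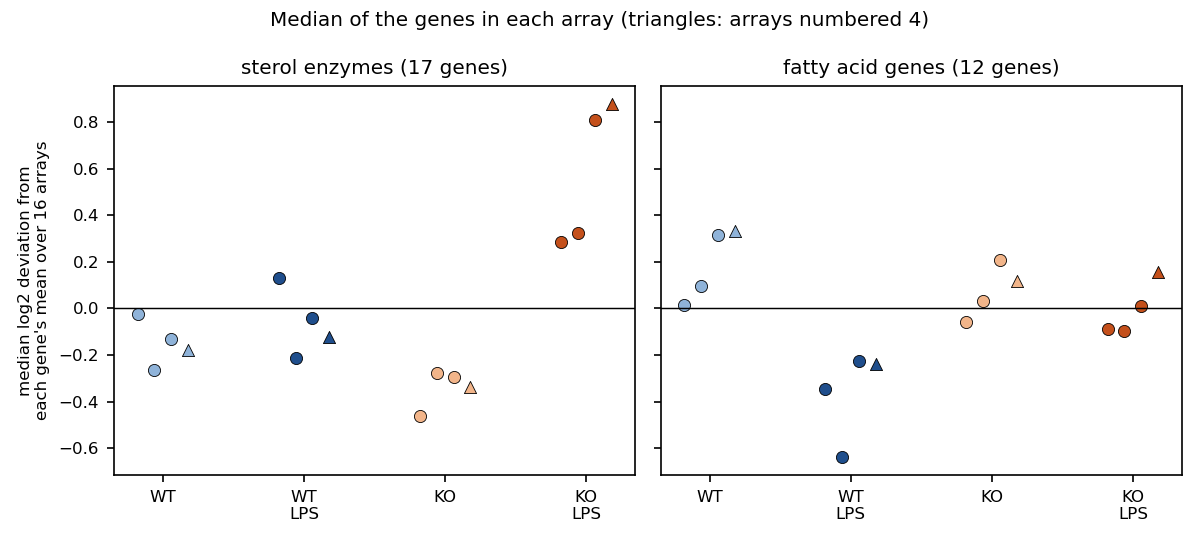
Median log2 deviation from each gene's mean over 16 arrays (vertical axis), by group (horizontal axis), for the sterol enzymes and the fatty acid genes; each point is 1 array and triangles mark the arrays numbered 4. For the sterol enzymes the 4 LPS-stimulated KO arrays lie between 0.29 and 0.88, above every other array. The 4 unstimulated KO arrays lie between -0.46 and -0.28 there, below every other array. For the fatty acid genes the 4 LPS-stimulated wild-type arrays lie between -0.64 and -0.23, below every other array.

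In the mevalonate branch LPS raised Hmgcs1 and Mvd and lowered Mvk in wild type, and in KO it raised 5 of 6 genes: Hmgcs1, Pmvk, Mvd, Idi1 and Fdps. Hmgcs1, which makes HMG-CoA, measured 8.59, 9.13, 9.27 and 9.25 in unstimulated wild-type arrays 1 to 4 and 9.44, 9.71, 9.60 and 9.82 with LPS. In KO it measured 8.30, 9.03, 9.13 and 8.89 without LPS and 9.80, 9.83, 10.49 and 10.54 with LPS. The stimulated arrays lay above the unstimulated ones in either genotype, with a rise of 0.58 ± 0.20 in wild type (1.5-fold, adjusted p = 0.0345) and of 1.33 ± 0.20 in KO (2.51-fold, adjusted p = 4.89e-05). Between genotypes with LPS, KO array 1 (9.80) lay below wild-type array 4 (9.82), and the difference of 0.52 ± 0.20 was not called (adjusted p = 0.254). With the array number as a block it was called (adjusted p = 0.0242).

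Fdps, the synthase of farnesyl diphosphate from which sterols and protein prenyl groups are made, was the member of this branch called between genotypes. Its levels were 9.11, 8.07, 9.16 and 8.72 in LPS-stimulated wild type and 9.32, 9.53, 9.79 and 9.79 in LPS-stimulated KO, against 8.29 to 8.62 and 8.47 to 8.53 without LPS. With LPS the genotypes did not overlap, although wild-type array 2 lay far below the other 3. KO exceeded wild type by 0.84 ± 0.18 (1.79-fold, adjusted p = 0.0127). The LPS change was 0.31 ± 0.18 in wild type (adjusted p = 0.225) and a rise of 1.11 ± 0.18 in KO (adjusted p = 9.64e-05). The difference between those responses, 0.80 ± 0.25, was not called (adjusted p = 0.168).

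Mvk, mevalonate kinase, fell with LPS in wild type by 0.33 ± 0.10 (adjusted p = 0.0179) and differed by -0.03 in KO (adjusted p = 0.903). Its 4 stimulated KO arrays (8.35 to 8.69) lay above the 4 stimulated wild-type arrays (7.92 to 8.31), a difference of 0.34 ± 0.10 that was not called (adjusted p = 0.0857) and was called with the array number as a block (adjusted p = 0.0491). Mvd, the decarboxylase that makes isopentenyl diphosphate, rose by 0.40 ± 0.11 in wild type and 0.63 ± 0.11 in KO. Pmvk, phosphomevalonate kinase, had an LPS difference of 0.00 ± 0.09 in wild type (adjusted p = 0.978) and a rise of 0.31 ± 0.09 in KO (adjusted p = 0.0136). Idi1, the isomerase of isopentenyl diphosphate, varied widely between KO arrays with LPS, at 8.43, 8.74, 9.27 and 10.19 in arrays 1 to 4. Array 4 was the highest, the wild type (8.32 to 8.85) overlapped, and the genotype difference with LPS was 0.53 ± 0.28 (adjusted p = 0.529). LPS raised Idi1 in KO by 1.19 ± 0.28 (adjusted p = 0.003), against 0.51 ± 0.28 in wild type (adjusted p = 0.185). The wild-type difference was called with only the compared groups in the fit (adjusted p = 0.0324) and with the mean of its probe sets (0.78, adjusted p = 0.0118). The dimmer probe set of Idi1 had means of 6.96 ± 0.10 and 7.99 ± 0.25 (SD, n = 4) in wild type without and with LPS, and of 6.58 ± 0.59 and 9.09 ± 0.51 in KO.

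The 3 enzymes that carry farnesyl diphosphate to lanosterol were all raised by LPS in KO and all higher in KO than in wild type with LPS; Sqle was the only one of them that LPS raised in wild type. Fdft1, squalene synthase, measured 8.80, 8.61, 8.70 and 8.71 in unstimulated wild type and 9.14, 8.25, 8.65 and 9.06 with LPS. Levels in KO were 7.82, 8.54, 8.28 and 8.51 without LPS and 9.55, 9.41, 10.05 and 10.14 with LPS. In wild type the stimulated arrays lay on both sides of the unstimulated ones, and in KO they were all higher. The LPS difference was 0.07 ± 0.20 in wild type (adjusted p = 0.828) and 1.5 ± 0.20 in KO (2.83-fold, adjusted p = 1.01e-05), and these responses differed by 1.43 ± 0.28 (adjusted p = 0.0172). With LPS, KO exceeded wild type by 1.01 ± 0.20 (2.02-fold, adjusted p = 0.00684). Its second, dimmer probe set had means of 8.46 ± 0.36 (SD, n = 4) in stimulated wild type and 9.49 ± 0.44 in stimulated KO.

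Sqle, squalene epoxidase, which adds the first oxygen on the way to sterols, measured 8.28, 8.11, 8.58 and 8.35 in unstimulated wild type and 8.98, 8.55, 8.92 and 9.0 with LPS. In KO the levels were 7.48, 7.96, 8.29 and 8.16 without LPS and 9.49, 9.35, 9.86 and 10.02 with LPS. Stimulated KO arrays lay above all others. LPS raised Sqle by 0.53 ± 0.18 in wild type (adjusted p = 0.0266) and by 1.71 ± 0.18 in KO (3.27-fold, adjusted p = 4.43e-07), and the responses differed by 1.18 ± 0.25 (adjusted p = 0.0243). The stimulated genotypes differed by 0.82 ± 0.18 (adjusted p = 0.0129). Lss, lanosterol synthase, lay at 7.70 to 7.96 in stimulated wild type and 8.26 to 8.80 in stimulated KO. Its genotype difference with LPS was 0.66 ± 0.17 (adjusted p = 0.0356), and its LPS change was -0.23 ± 0.17 in wild type (adjusted p = 0.333) against a rise of 0.66 ± 0.17 in KO (adjusted p = 0.00584).

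After lanosterol the enzymes did not share 1 direction in wild type: LPS raised Cyp51, Hsd17b7 and Sc5d and lowered Msmo1, Nsdhl, Ebp and Dhcr7. In KO it raised the first 3 together with Msmo1 and Nsdhl, and lowered Ebp and Dhcr7. Msmo1, which removes the C4 methyl groups with Nsdhl and Hsd17b7, measured 9.74, 9.58, 9.74 and 9.71 in unstimulated wild type and 9.62, 8.83, 9.26 and 9.28 with LPS. The KO arrays held 9.28, 9.64, 9.64 and 9.68 without LPS and 10.29, 10.18, 10.62 and 10.74 with LPS. The unstimulated genotypes overlapped, the stimulated wild-type arrays lay mostly lower and all stimulated KO arrays higher. Msmo1 fell by 0.45 ± 0.15 in wild type (adjusted p = 0.0297) and rose by 0.90 ± 0.15 in KO (adjusted p = 0.000141). With LPS the genotypes differed by 1.21 ± 0.15 (2.32-fold, adjusted p = 0.000156) and the responses by 1.35 ± 0.21 (adjusted p = 0.00588).

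Nsdhl, the X-linked C4 decarboxylase, behaved alike at a smaller size: it measured 8.61, 8.19, 8.40 and 8.43 in stimulated wild type and 8.81, 8.86, 9.19 and 9.08 in stimulated KO, with no overlap. It fell by 0.40 ± 0.13 in wild type (adjusted p = 0.0199) and rose by 0.38 ± 0.13 in KO (adjusted p = 0.0356), and the responses differed by 0.78 ± 0.18 (adjusted p = 0.0393). The stimulated genotypes differed by 0.58 ± 0.13 (adjusted p = 0.0161). Hsd17b7, the keto-reductase of the same C4 complex, rose by 0.53 ± 0.17 in wild type and 1.39 ± 0.17 in KO. Its genotype difference with LPS was 0.70 ± 0.17 (adjusted p = 0.0252), although KO array 2 (8.25) lay below wild-type array 1 (8.33).

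Cyp51, the lanosterol demethylase, measured 8.12, 7.54, 7.76 and 7.60 in stimulated wild type and 8.40, 7.97, 8.69 and 8.91 in stimulated KO, against 6.86 to 7.34 and 6.45 to 7.19 without LPS. LPS raised it in either genotype, by 0.68 ± 0.19 and 1.63 ± 0.19. The stimulated groups overlapped by 1 KO array, and their difference was 0.74 ± 0.19 (adjusted p = 0.0429). Sc5d, the C5 desaturase, rose by 0.74 ± 0.12 and 1.30 ± 0.12, and with LPS KO exceeded wild type by 0.55 ± 0.12 (adjusted p = 0.0189). Dhcr7, which catalyses the last step to cholesterol in 1 of its routes, measured 7.11, 7.03, 7.05 and 6.74 in stimulated wild type and 7.47, 7.38, 7.59 and 7.41 in stimulated KO, below the 8.07 to 8.36 and 7.68 to 8.07 without LPS. It fell in either genotype, by 1.25 ± 0.10 in wild type (2.38-fold, adjusted p = 2.65e-08) and by 0.44 ± 0.10 in KO (adjusted p = 0.00393), and these falls differed by 0.81 ± 0.15 (adjusted p = 0.0131), which left stimulated KO 0.48 ± 0.10 above stimulated wild type (adjusted p = 0.0146). Ebp, the X-linked sterol isomerase, fell by 1.0 ± 0.14 in wild type and by 0.48 ± 0.14 in KO, and its responses were not called different (0.53 ± 0.20, adjusted p = 0.29). Tm7sf2, a sterol C14 reductase, was not called in any of the 5 comparisons, at differences between -0.18 and 0.23.

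**Figure D2:**
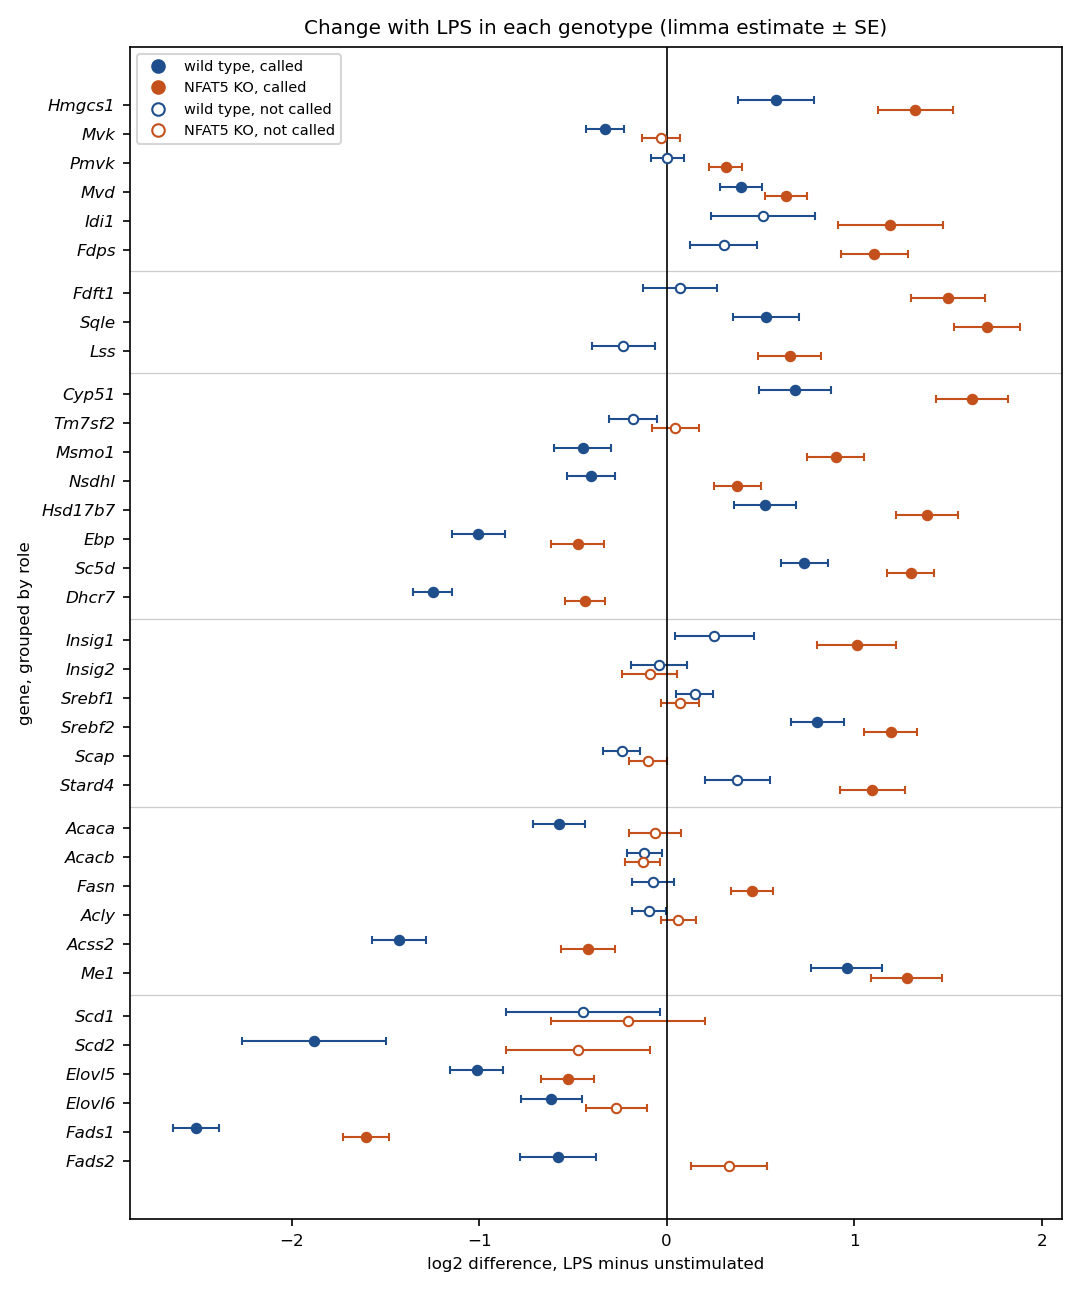
Log2 difference of LPS against unstimulated (horizontal axis, limma estimate ± SE) for the 35 measured members (vertical axis, grouped by role), in wild type and in KO; filled points are called and open points are not. Squalene and lanosterol enzymes lie to the right in KO (0.66 to 1.71), desaturation and elongation genes lie to the left in wild type (-2.51 to -0.45).

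Among the regulators, LPS raised Srebf2 in either genotype, and Insig1 and Stard4 in KO; none of the 6 was called between genotypes. Srebf2 measured 10.14, 9.95, 10.11 and 10.11 in unstimulated wild type and 11.03, 10.57, 10.97 and 10.96 with LPS. In KO it measured 9.30, 9.76, 9.92 and 9.98 without LPS and 10.81, 10.71, 11.12 and 11.11 with LPS. Every stimulated array lay above every unstimulated array. The rise was 0.80 ± 0.14 in wild type (1.75-fold, adjusted p = 0.000184) and 1.20 ± 0.14 in KO (2.29-fold, adjusted p = 2.85e-06), and with LPS the genotypes differed by 0.05 ± 0.14 (adjusted p = 0.998).

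Insig1, itself a target of SREBPs, measured 10.50, 9.90, 10.18 and 9.70 in stimulated wild type and 10.72, 10.22, 11.0 and 10.58 in stimulated KO, against 9.53 to 10.19 and 9.19 to 10.12 without LPS. The stimulated genotypes overlapped. The LPS difference was 0.25 ± 0.21 in wild type (adjusted p = 0.408) and a rise of 1.01 ± 0.21 in KO (adjusted p = 0.00116). Stard4, a carrier of cholesterol through the cytosol, followed the same order, at 0.38 ± 0.17 in wild type (adjusted p = 0.115) and a rise of 1.10 ± 0.17 in KO. Between stimulated genotypes Insig1 and Stard4 differed by 0.56 ± 0.21 (adjusted p = 0.237) and 0.45 ± 0.17 (adjusted p = 0.257). Both, and no other regulator, had an unadjusted limma p under 0.05 there. Srebf1, Scap and Insig2 were called in none of the 5 comparisons, with differences between -0.24 and 0.15.

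Fatty acid synthesis was less uniform. Fasn, the synthase of palmitate, measured 8.71, 8.92, 9.0 and 9.08 in unstimulated wild type and 8.96, 8.76, 8.90 and 8.79 with LPS. Levels in KO were 8.81, 8.97, 9.05 and 8.93 without LPS and 9.17, 9.23, 9.55 and 9.62 with LPS. Only the stimulated KO arrays stood apart. Fasn differed by -0.07 ± 0.11 with LPS in wild type (adjusted p = 0.67) and rose by 0.46 ± 0.11 in KO (adjusted p = 0.00429), and stimulated KO exceeded stimulated wild type by 0.54 ± 0.11 (1.46-fold, adjusted p = 0.00927). Acss2, which makes acetyl-CoA from acetate, went down: it measured 8.69, 8.76, 8.79 and 8.75 in unstimulated wild type and 7.03, 6.97, 7.53 and 7.74 with LPS. The KO arrays held 8.15, 8.53, 8.41 and 8.51 without LPS and 7.97, 8.18, 7.96 and 7.81 with LPS. All stimulated KO arrays lay above all stimulated wild-type arrays, and KO array 4 was the lowest of them. Acss2 fell by 1.43 ± 0.14 in wild type (2.69-fold, adjusted p = 2.87e-07) and by 0.42 ± 0.14 in KO (adjusted p = 0.0401), and the responses differed by 1.01 ± 0.20 (adjusted p = 0.0195). Stimulated KO exceeded stimulated wild type by 0.66 ± 0.14 (1.58-fold, adjusted p = 0.0155).

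Acaca, the acetyl-CoA carboxylase of the cytosol, fell with LPS in wild type by 0.57 ± 0.14 (adjusted p = 0.00323) and differed by -0.06 ± 0.14 in KO (adjusted p = 0.839). Me1, malic enzyme, which supplies NADPH, rose in either genotype, by 0.96 ± 0.19 and 1.28 ± 0.19, and was the only fatty acid gene that LPS raised in wild type. Acly, ATP citrate lyase, and Acacb, the mitochondrial carboxylase, were called in none of the 5 comparisons, with differences between -0.16 and 0.16.

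Desaturation and elongation genes were lowered by LPS in wild type in 5 of 6 cases, and in 2 of 6, Fads1 and Elovl5, in KO. Fads1, the delta-5 desaturase of polyunsaturated fatty acids, measured 11.15, 11.11, 11.24 and 11.18 in unstimulated wild type and 8.77, 8.27, 8.79 and 8.81 with LPS. In KO it measured 10.64, 11.02, 11.16 and 11.08 without LPS and 9.31, 9.48, 9.35 and 9.35 with LPS. The 4 groups formed 3 levels: unstimulated arrays high, stimulated KO lower, stimulated wild type lowest. Fads1 fell by 2.51 ± 0.12 in wild type (5.71-fold, adjusted p = 2.16e-11) and by 1.60 ± 0.12 in KO (3.04-fold, adjusted p = 1.08e-08), and the falls differed by 0.91 ± 0.17 (adjusted p = 0.0145). With LPS the genotypes differed by 0.72 ± 0.12 (1.64-fold, adjusted p = 0.00226). In wild type it ranked 61 of 19937 genes from the lowest difference.

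Fads2, whose enzyme acts before that of Fads1, measured 8.22, 7.97, 8.54 and 8.43 in unstimulated wild type and 7.80, 7.30, 8.0 and 7.75 with LPS. In KO the levels were 8.24, 8.32, 8.98 and 8.44 without LPS and 8.49, 8.46, 9.32 and 9.04 with LPS. Stimulated KO arrays did not overlap stimulated wild-type arrays, and the difference was 1.12 ± 0.20 (2.17-fold, adjusted p = 0.00389). Fads2 fell in wild type by 0.58 ± 0.20 (adjusted p = 0.0379) and differed by 0.33 ± 0.20 in KO (adjusted p = 0.305). The difference between the responses, 0.91 ± 0.29, was not called (adjusted p = 0.169).

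Scd2, a stearoyl-CoA desaturase, measured 7.93, 8.03, 8.63 and 9.04 in unstimulated wild type and 6.77, 5.84, 6.62 and 6.88 with LPS. Levels in KO were 7.85, 7.83, 9.18 and 9.13 without LPS and 7.79, 7.03, 8.54 and 8.74 with LPS. In unstimulated arrays of either genotype, and in stimulated KO, numbers 3 and 4 exceeded numbers 1 and 2. Scd2 fell by 1.88 ± 0.38 in wild type (3.69-fold, adjusted p = 0.00075) and differed by -0.47 ± 0.38 in KO (adjusted p = 0.479). With LPS the genotypes differed by 1.5 ± 0.38 (2.83-fold, adjusted p = 0.039), rank 7 of 19937 from the highest difference. Scd1 had numbers 3 and 4 above 1 and 2 in all 4 groups, near the array medians, between 5.66 and 7.75, and was called in none of the 5 comparisons. Elovl5 and Elovl6, elongases of polyunsaturated and saturated chains, gave wild-type LPS differences of -1.01 ± 0.14 and -0.62 ± 0.16, both called. In KO Elovl5 fell by 0.53 ± 0.14 and Elovl6 differed by -0.27 ± 0.16 (adjusted p = 0.301).

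**Figure D3:**
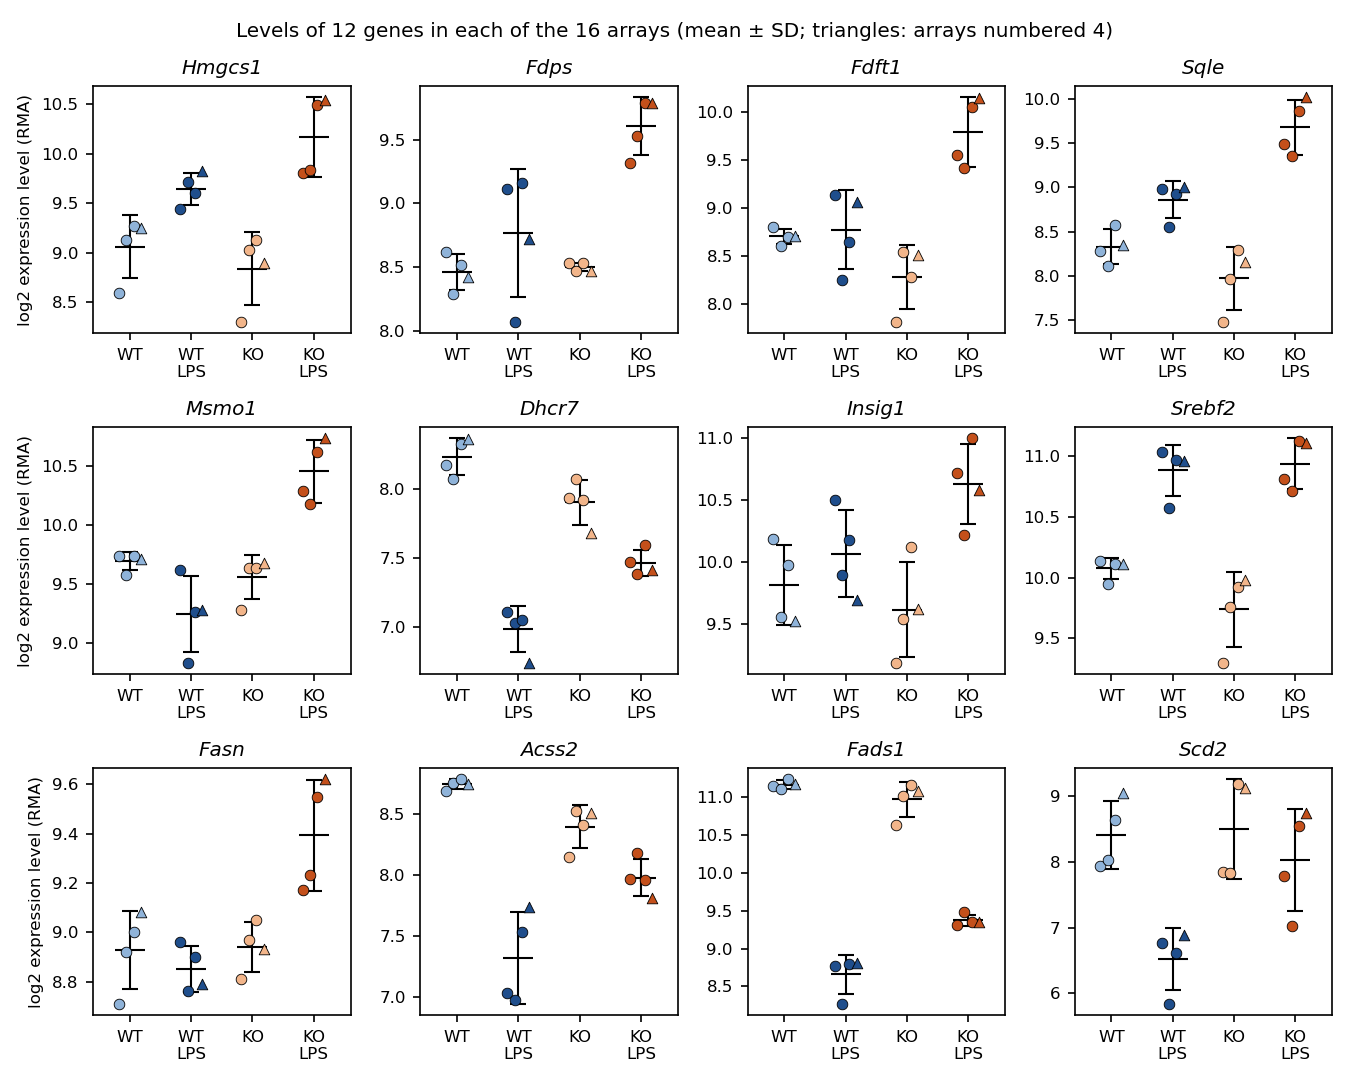
Log2 RMA expression level (vertical axis) of 12 genes in each of the 16 arrays, by group (horizontal axis); points are arrays, triangles the arrays numbered 4, and bars the mean ± SD of 4 arrays. Msmo1 is lower with LPS in wild type (8.83 to 9.62) and higher with LPS in KO (10.18 to 10.74); Fads1 falls in either genotype, to 8.27 to 8.81 and 9.31 to 9.48.

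Without LPS no member was called between KO and wild type by limma, where 1% of all genes were called. At an unadjusted p under 0.05 there were 5 members, all lower in KO (Fdft1, Dhcr7, Srebf2, Acaca and Acss2), or 14.3% against 7.83% of all genes. The median difference of the 35 members was -0.15, against 0.00 over all genes. The wild-type levels of Acaca were 8.50, 8.81, 8.87 and 8.62. Those in KO were 7.87, 8.39, 8.39 and 8.05. These values did not overlap, and the difference of -0.53 ± 0.14 was not called (adjusted p = 0.096). It was called with the array number as a block (adjusted p = 0.0164) and with each array centred on its median (adjusted p = 0.049). With a term for Xist above or below Kdm5d it was called as well (adjusted p = 0.0319). KO array 1 held the lowest sterol enzyme median of the 16 arrays (-0.46).

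With LPS 15 members were higher in KO than in wild type and none was lower, where 1.8% of all genes were called higher. They were 10 sterol enzymes (Fdps, Fdft1, Sqle, Lss, Cyp51, Msmo1, Nsdhl, Hsd17b7, Sc5d and Dhcr7) and 5 fatty acid genes (Fasn, Acss2, Scd2, Fads1 and Fads2). At an unadjusted p under 0.05, 23 were higher and 0 lower (65.7%), where 1328 of all genes were higher and 934 lower (11.3%). The median difference of the 35 members was 0.48 and that of all genes -0.01. Groups did not overlap in 16 of 35 members, where 7.73% of all genes had groups apart. In 2 of the 15 called members, Cyp51 and Hsd17b7, the groups overlapped, and 3 members with groups apart, Mvk, Mvd and Elovl6, were not called.

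The KO array numbered 4, whose Xist level lay with the wild type, was above all 4 stimulated wild-type arrays in 28 of the 35 members (80%), where 28.2% of all genes were. The 7 others were Ebp, Insig2, Srebf1, Scap, Acaca, Me1 and Elovl5. The 15 called members are among the 28, but this array took part in calling them. Its excess over the wild-type mean was 1.5 for Msmo1, 1.37 for Fdft1, 1.16 for Sqle and 0.70 for Fads1, beside 1.12, 0.89, 0.70 and 0.72 for the mean of KO arrays 1 to 3. With a term in the fit for Xist above or below Kdm5d, 10 members were called. Those that lost the call were Lss (adjusted p = 0.116), Nsdhl (0.0947), Hsd17b7 (0.114), Dhcr7 (0.152) and Acss2 (0.0847). All wild-type arrays share the same value of this term, so it rests on the KO arrays numbered 4 against the other KO arrays. With only the 2 stimulated groups in the fit 10 were called as well, without Fdps (adjusted p = 0.0814), Cyp51 (0.085), Hsd17b7 (0.12), Acss2 (0.0726) and Scd2 (0.0517). Among the 10 arrays with Xist above Kdm5d, whose single KO array in each treatment was taken to vary as the remaining groups do, 3 members were called higher (Idi1, Sqle and Msmo1). Without the arrays numbered 4, 6 were called higher (Fdft1, Msmo1, Dhcr7, Acss2, Fads1 and Fads2). Leaving out 1 array at a time gave 7 to 15 calls, and Fdps, Fdft1, Msmo1, Fasn, Fads1 and Fads2 were called in each of these 16 fits. Without wild-type LPS array 2 the count was 7, with Sqle, Lss, Cyp51, Nsdhl, Hsd17b7, Sc5d, Acss2 and Scd2 not called. Without KO LPS array 3 it was also 7, with Dhcr7 in place of Acss2 among those not called. Cyp51 lost the call in 10 of the 16 fits, Scd2 in 7 and Lss in 5.

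**Figure D4:**
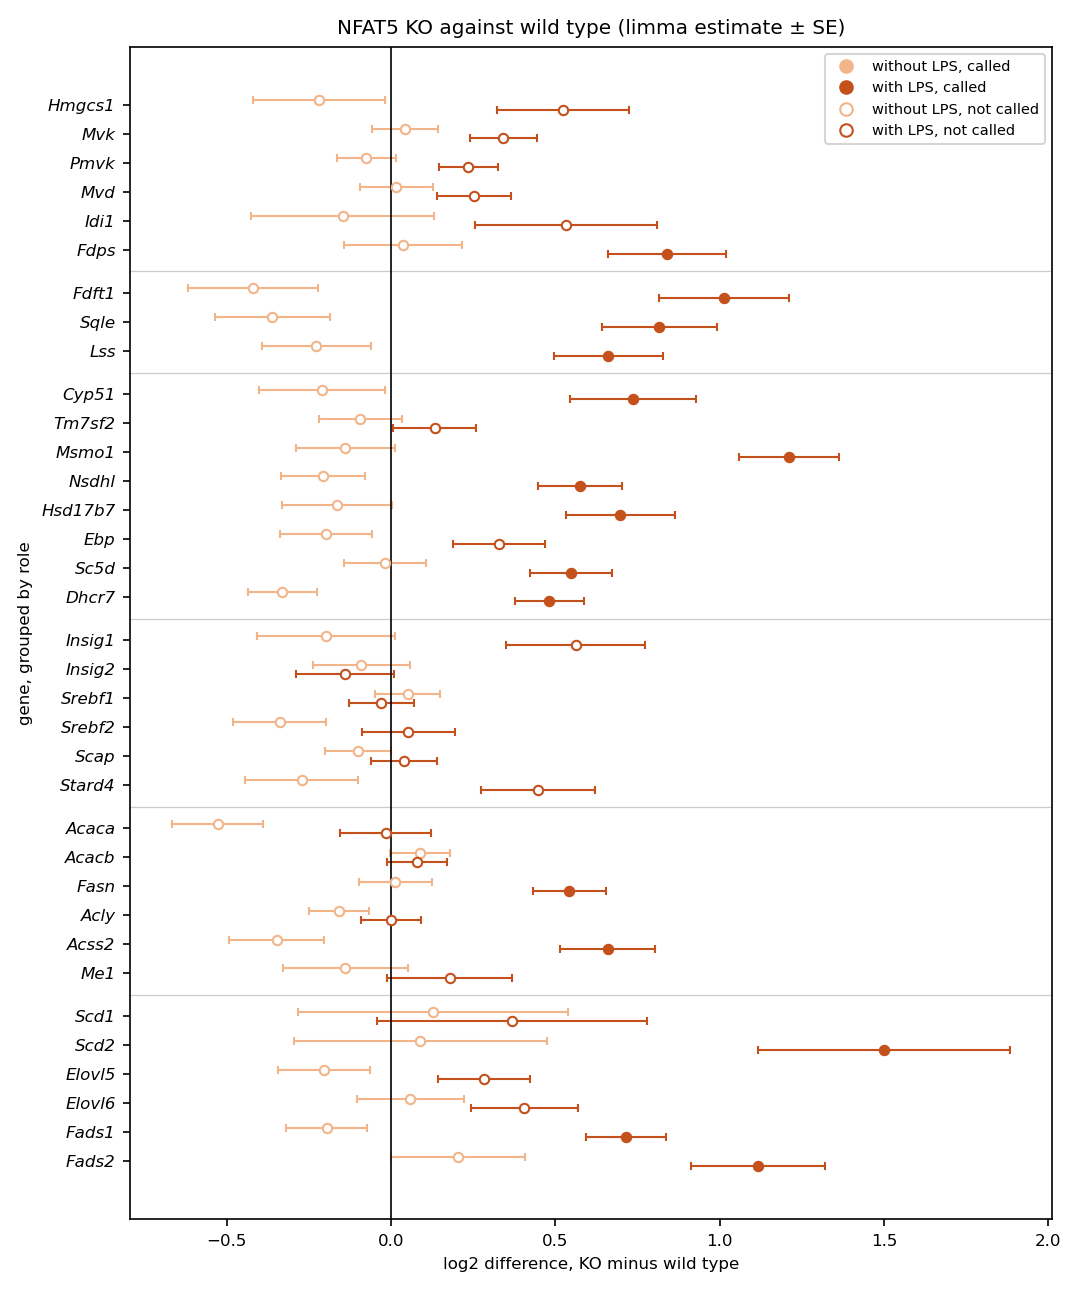
Log2 difference of KO against wild type (horizontal axis, limma estimate ± SE) for the 35 measured members (vertical axis, grouped by role), without and with LPS; filled points are called and open points are not. Without LPS the estimates lie between -0.53 and 0.20 and all are open; with LPS the 15 filled points lie between 0.48 and 1.5.

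The LPS response itself was tested for a difference between genotypes. It was called more positive in KO for 7 members (Fdft1, Sqle, Msmo1, Nsdhl, Dhcr7, Acss2 and Fads1), where 0.988% of all genes were called in that direction, and no member was called the other way. At an unadjusted p under 0.05, 22 were more positive and 0 less (62.9%), where 1372 of all genes were more positive and 672 less (10.3%). With the array number as a block 12 were called, adding Hmgcs1, Lss, Hsd17b7, Scd2 and Fads2. Without the arrays numbered 4 the count was 4 (Msmo1, Dhcr7, Acss2 and Fads1). Among the 10 arrays with Xist above Kdm5d only 1 KO array per treatment remained. There the differences in response of the 7 were 1.57 for Fdft1, 1.33 for Sqle, 1.52 for Msmo1 and 1.06 for Nsdhl. They were 0.99 for Dhcr7, 0.73 for Acss2 and 0.79 for Fads1. The 7 members did not move alike: in KO LPS raised Fdft1, Sqle, Msmo1 and Nsdhl, whereas Dhcr7, Acss2 and Fads1 fell by less than in wild type. Part of each difference in response lay without LPS. There all 7 were lower in KO than in wild type, from -0.14 (Msmo1) to -0.42 (Fdft1), and none was called. By LPS call in each genotype, 8 members rose in both, and 8 rose in KO and were not called in wild type. Another 5 fell in both, and 5 fell in wild type and were not called in KO. A further 2 (Msmo1 and Nsdhl) fell in wild type and rose in KO, and 7 were called in neither. The shares of all genes in these classes were not counted. A call in 1 genotype alone is not a tested difference between genotypes. The opposite directions of Msmo1 and Nsdhl rest in part on single arrays. The wild-type fall of Msmo1 was not called in 5 of 16 fits that left out 1 array (adjusted p 0.0556 to 0.122, without wild-type arrays 1, 3 or 4 unstimulated or 2 or 3 with LPS). The KO rise of Nsdhl was not called in 4 (0.0872 to 0.128, without KO arrays 1 or 4 unstimulated or 3 or 4 with LPS) or with only the compared groups (0.0824), its wild-type fall in 2, and its difference in response in 12 (0.0512 to 0.0981). That of Sqle was not called in 3 (0.0509 to 0.0618, without wild-type array 3 unstimulated, wild-type array 2 with LPS or KO array 3 with LPS).

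Of 48 other measured genes of these pathways, from 5 lists, 10 rose (20.8%) and 14 fell (29.2%) with LPS in wild type, beside 14% and 16.8% of all genes. In KO 12 rose (25%) and 7 fell (14.6%), beside 12% and 12.7%. In stimulated KO 5 were higher (10.4%, beside 1.8%) and none lower than in stimulated wild type. Genotype differences of these genes are not given for the arrays numbered 4, so sex and genotype cannot be told apart in them. The first list, of sterol and related lipid genes outside the members, held 4 measured genes, Npc1, Npc2, Tmem97 and Lpin1, which all fell in wild type, while Npc1 and Lpin1 fell in KO. Npc1, which exports lysosomal cholesterol, fell by 1.29 ± 0.10 in wild type and fell by 1.13 ± 0.10 in KO. Tmem97, a partner of Npc1, fell in wild type by 0.59 ± 0.14 and differed by 0.15 ± 0.14 in KO (adjusted p = 0.554). Both were higher in stimulated KO, by 0.37 (adjusted p = 0.0411) and 0.53 (adjusted p = 0.0416). Lpin1, a phosphatidate phosphatase, fell by 0.68 ± 0.16 in wild type and fell by 1.30 ± 0.16 in KO.

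Of 6 measured genes listed for SREBP processing and stability, 1 rose (16.7%) and 2 fell (33.3%) in wild type and 3 rose (50%) in KO. Over all genes 14% rose and 16.8% fell in wild type, and 12% rose in KO. The 1 that rose in wild type was Trib1, by 1.66, and it rose by 1.78 in KO. Whether Trib1 acts on SREBP was not tested. Rnf139 rose in KO by 0.64 ± 0.12 and Sec24d fell in wild type by 0.55 ± 0.13. None was called between genotypes. At an unadjusted limma p under 0.05, 2 were higher in KO with LPS (33.3%, beside 11.3% of all genes). Without LPS 2 were lower in KO (33.3%, beside 7.83%). Of 9 isoprenoid branch genes, 1 rose (11.1%) and 2 fell (22.2%) in wild type and 1 rose (11.1%) in KO. These counts lay near the shares over all genes. Nus1, of dolichol synthesis, rose by 0.29, Pdss2, of ubiquinone synthesis, fell by 0.39, and in KO Pggt1b, a prenyl transferase subunit, rose by 0.53. Between genotypes none was called in either treatment, nor had any an unadjusted p under 0.05. Of 23 further fatty acid genes 6 rose (26.1%) and 3 fell (13%) in wild type, and 6 rose (26.1%) and 2 fell (8.7%) in KO, so that the falls lay near or below the shares over all genes. Acsl5, an acyl-CoA synthetase, rose by 1.65 in wild type and by 1.77 in KO, and Hsd17b12, a reductase of chain elongation, rose by 1.39 and by 1.31. Acsl4, which prefers arachidonate, rose by 0.78 and by 1.01. With LPS no gene of this list was called between genotypes (3 at an unadjusted p under 0.05, or 13% beside 11.3% of all genes). Without LPS Cd36, the fatty acid uptake receptor, named after its value was seen, was higher in KO by 0.79 (adjusted p = 0.024).

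Of 6 oxysterol and cholesteryl ester genes 2 rose (33.3%) and 3 fell (50%) with LPS in either genotype. Over all genes 14% rose and 16.8% fell in wild type, and 12% rose and 12.7% fell in KO. Ch25h, which makes 25-hydroxycholesterol, rose by 3.28 ± 0.18 in wild type (9.74-fold) and 3.68 in KO. Nceh1, a cholesteryl ester hydrolase, fell by 3.11 in wild type and fell by 2.23 in KO. Cyp27a1, the sterol 27-hydroxylase, fell by 3.01 in wild type and fell by 2.25 in KO. Nceh1 and Cyp27a1 were higher in stimulated KO by 1.06 (adjusted p = 0.00107) and 0.70 (adjusted p = 0.048). Lipa, the lysosomal acid lipase, named after its values were seen, fell by 1.93 in wild type and fell by 0.79 in KO, was higher in stimulated KO by 1.23 and had responses that differed by 1.14 (adjusted p = 0.0338).

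Markers of other cells were set beside these results. Of 7 macrophage markers Mertk was higher in stimulated KO (0.79) and the other 6 were not called; their summed log2 level was 86.73 to 87.45 in unstimulated wild type, 83.20 to 84.53 in stimulated wild type, 85.88 to 86.83 in unstimulated KO and 84.94 to 85.29 in stimulated KO. Of 6 measured adipocyte markers 0 were called between genotypes with LPS, nor had any an unadjusted limma p under 0.05. Their sum was 39.62 to 40.51 and 41.16 to 41.57 in wild type without and with LPS, and 40.12 to 40.60 and 40.64 to 41.29 in KO. Without LPS 2 of the 6 had an unadjusted p under 0.05 between genotypes (33.3%, beside 7.83% of all genes), Lipe lower (-0.34) and Retn higher (0.28) in KO. The same 2 did so for the difference in response (33.3%, beside 10.3%), and none was called. Lipe, a hormone-sensitive lipase also known in macrophages, was the bright one at 9.05 to 9.82. The fat cell genes Adipoq and Lep stayed at 4.72 to 5.09 and 5.09 to 5.56, below the array medians. The median of the whole list was 6.49 to 7.14, around the array medians of 6.76 to 6.86. Neutrophil, lymphocyte, stromal and erythroid lists had medians between 4.68 and 7.03 and no call between genotypes. Of 6 dendritic cell markers Itgax was lower in stimulated KO (difference -1.83) and the others were not called; the list summed to 37.62 to 38.88 and 41.52 to 43.31 in wild type without and with LPS, and to 36.92 to 37.77 and 38.33 to 40.68 in KO. With LPS, several of these genes also moved. Mertk fell by 1.62 in wild type and fell by 1.15 in KO, Itgax rose by 2.56 and 1.73, the megakaryocyte gene Pf4 by 1.46 and 1.21, and the dendritic cell gene Xcr1 by 0.63 and 0.58. Called in wild type were also Camp (0.79), Retn (0.51), Cidec (0.34), Ms4a1 (0.31), Cd4 (-0.61), Csf1r (-0.49) and Cd68 (-0.57). Called in KO were also Lipe (0.54), Fcgr1 (0.51), S100a8 (0.35), Adgre1 (0.28) and Cd68 (-0.42). The part of these differences in the member results was not tested.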

How the data were processed

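RNA from 16 macrophage samples was hybridised to Affymetrix arrays, 1 per array. The authors deposited log2 values per probe set; they used RMA (background correction, quantile normalisation, probe summary), per the submitters' processing notes, which give no version. RMA removes a change shared by all genes and compresses dim ones. Of 34760 probe sets, 21640 name 1 gene, 1321 several (left out) and 11799 none. The brightest probe set stood for each of 19937 genes. Members matched a RefSeq table by gene identifier in 35 of 35 cases.

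Groups came from the labels. One limma 3.58.1 model (lmFit, eBayes, R 4.3.3) with 12 residual degrees of freedom gave 5 contrasts, adjusted by Benjamini-Hochberg. The members, gene lists, named genes (all members, the 3 smallest p among called genes of each other list, Ch25h, reference genes and markers) and alternatives were chosen with earlier results of these data known. Alternatives changed the block, arrays, probe sets, filter, centring, Xist term or prior. The Xist term marked each array as having Xist above or below Kdm5d, and did not use the Xist level itself.

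Array numbers paired the genotypes. Deviations of same-numbered wild-type and KO arrays correlated over genes at 0.16 to 0.44 without LPS and 0.19 to 0.52 with it. The main fit held no block and so left this pairing out. With the block 17 members in place of 15 were called between stimulated genotypes, and 12 in place of 7 for the difference in response. No 2 arrays of a group were duplicates (SD of their differences 0.17 to 0.38). On simulated data for KO against wild type with LPS (19937 genes, 4 arrays a group), the fit recovered 56% of the genes raised by 0.5, 96% of those raised by 1, 100% of those raised by 2 and 96% of those lowered by 1. False calls numbered 8 among the 19737 genes left unchanged. The number of arrays limits the precision.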

Additional observations from a re-analysis of the deposited data

Results flagged for a closer look

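In 7 of 140 groups of 4 arrays (5.0%), 1 array lay apart from the other 3 by Dixon's criterion; chance alone gives about 1 in 20. Of these, 4 involved wild-type array 2 as the lowest: Sqle with LPS at 8.55 (others 8.92 to 9.0), Fads1 with LPS at 8.27 (8.77 to 8.81), and Srebf2 at 9.95 without LPS (10.11 to 10.14) and 10.57 with it (10.96 to 11.03). The rest were low values in unstimulated KO: Pmvk in array 2 at 7.33 (7.40 to 7.41), Msmo1 in array 1 at 9.28 (9.64 to 9.68) and Insig2 in array 4 at 8.73 (9.17 to 9.24).

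The LPS response differed between genotypes, by the limma test of the difference itself, in 7 members: Fdft1 by 1.43, Msmo1 by 1.35, Sqle by 1.18, Acss2 by 1.01, Fads1 by 0.91, Dhcr7 by 0.81 and Nsdhl by 0.78 on the log2 scale, each more positive in KO.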

How the results depend on the processing

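Over the member values and alternatives examined, 4139 kept their call or stayed uncalled, 159 lost and 27 gained one, and no called value turned sign. For KO against wild type without LPS, the count of called members was 0 and became 1 with the replicate block, 1 with median-centred arrays and 2 with an Xist term (Acaca and Me1). With LPS it was 15 and became 6 without the arrays numbered 4 and 3 among the 10 arrays with Xist above Kdm5d; leaving out 1 array gave 7 to 15. An Xist term gave 10 (without Lss, Nsdhl, Hsd17b7, Dhcr7 and Acss2), only the groups compared gave 10 (without Fdps, Cyp51, Hsd17b7, Acss2 and Scd2), and the replicate block gave 17, adding Hmgcs1 and Mvk. For the difference in response it was 7 and became 12 with the replicate block, 4 without the arrays numbered 4 and 0 among the 10 arrays; leaving out 1 array gave 5 to 8. The block changed no other genotype call. The LPS response of KO cells had 23 and 11 among the 10 arrays, where 1 KO array per treatment remained; leaving out 1 array gave 19 to 23, and 15 to 20 of 20 in wild type. Array numbers paired the LPS contrasts only in part, with correlations of 0.045 to 0.429 in wild type and -0.06 to 0.558 in KO. There 6 of 8 arrays in wild type and 4 of 8 in KO correlated best with their own number. The replicate block gave 21 and 24 called members (Scd1 and Fads2 added).

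Counts over all genes moved by more than 1.5 times as follows. KO against wild type without LPS had 200 calls, and 327 with the block, 91 with only the groups compared, 359 with the Xist term and 58 among the 10 arrays. With LPS it had 609, and 950 with the block and 89 among the 10 arrays. The difference in response had 257, and 451 with the block, 153 without the arrays numbered 4 and 4 among the 10 arrays. The LPS response of KO cells had 4919, and 1962 among the 10 arrays. The cause of these shifts was not tested.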
